A study of Homo sapiens with 4 samples.

Results

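The 10 genes described here, DUSP4, DUSP5, DUSP6, SPRY1, SPRY2, SPRY4, SPRED1, SPRED2, ETV5 and PHLDA1, are transcribed in response to ERK signaling, and most of their products act back on it. They were chosen by symbol, and all probe sets annotated to these symbols alone were taken, 28 of the 54613 probe sets tested and 10 of 19775 genes. Jurkat, an established line of human T-cell acute lymphoblastic leukemia, was profiled on HG-U133 Plus 2.0 arrays 24 h after transfection. Cells received 100 nM of pooled siRNA against LEF1 (siLEF1, 2 arrays) or 100 nM of pooled non-targeting siRNA (siNT, 2 arrays), and both groups received the same transfection reagent; untransfected cells were not analysed here. The sample labels call the 2 replicates of each group biological, and it is 1 cell line. The list was proposed with the siLEF1 minus siNT values of these arrays known, so those values are given as a description, without p-values, and support nothing by themselves.

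In T cells, signals from the antigen receptor load RAS with GTP through exchange factors of the RASGRP and SOS families, and RAS then acts through RAF and MEK kinases on ERK. ERK enters the nucleus and induces, among others, genes whose products slow the same pathway. DUSP4, DUSP5 and DUSP6 are dual-specificity phosphatases that remove phosphate from MAP kinases, Sprouty and SPRED proteins act upstream at the level of RAS and RAF, ETV5 is an ETS transcription factor of the PEA3 group, and PHLDA1 is a pleckstrin homology-like protein first known from T-cell death in mouse cells.

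Promoter windows were read from RefSeq (GRCh38.p14), 250 bases before to 50 bases after an annotated gene start, and are shown so that the sequence at the start of DUSP6 and PHLDA1, which hold the called probe sets, and of the 1 gene with TCF/LEF letters can be read beside the values. Windows were read for 7 of the 10 genes, 11 windows in all because some genes have several starts. Those of DUSP4, DUSP5 and ETV5 were not read, so the counts below say nothing about these genes. Capitals mark matches, on either strand, to a TCF/LEF motif (CTTTGAA or CTTTGAT), AP-1 (TGACTCA), CRE (TGACGTCA), ETS (CCGGAAG), EGR (GCGGGGGCG or GCGTGGGCG), a CCAAT box (CCAAT) or the CArG box of serum response factor. The window of DUSP6, at chr12:89352452-89352751 on the minus strand, held only a CCAAT box. That of PHLDA1, at chr12:76031727-76032026 on the minus strand, held none of these letters. The third window is the only 1 of the 11 with the TCF/LEF letters, which it holds at 2 places; it belongs to the most downstream of the 3 windows of SPRY2, at chr13:80339610-80339909 on the minus strand.
DUSP6: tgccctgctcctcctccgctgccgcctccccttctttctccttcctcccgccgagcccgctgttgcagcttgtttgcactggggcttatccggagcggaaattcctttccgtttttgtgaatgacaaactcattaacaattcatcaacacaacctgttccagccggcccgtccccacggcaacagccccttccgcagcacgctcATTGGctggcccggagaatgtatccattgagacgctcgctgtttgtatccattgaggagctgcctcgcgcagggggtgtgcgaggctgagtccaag
PHLDA1: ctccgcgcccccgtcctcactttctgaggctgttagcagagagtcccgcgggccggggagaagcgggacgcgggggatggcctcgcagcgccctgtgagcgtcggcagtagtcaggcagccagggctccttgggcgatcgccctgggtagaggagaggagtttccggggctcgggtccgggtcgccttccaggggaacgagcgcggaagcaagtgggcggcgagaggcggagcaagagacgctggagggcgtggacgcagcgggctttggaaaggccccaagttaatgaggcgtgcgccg
SPRY2: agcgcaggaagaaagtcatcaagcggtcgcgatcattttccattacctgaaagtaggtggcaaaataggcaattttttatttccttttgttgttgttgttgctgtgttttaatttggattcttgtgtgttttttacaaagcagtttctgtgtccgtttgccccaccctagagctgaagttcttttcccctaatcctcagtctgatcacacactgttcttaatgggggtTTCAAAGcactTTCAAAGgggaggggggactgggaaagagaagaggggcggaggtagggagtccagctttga
Of all 35116 promoter windows of this length, 6.86% held the TCF/LEF letters and 34.6% a CCAAT box, which was found in 2 of the 11 windows, those of DUSP6 and an SPRED2 start. In the 11 windows the AP-1 letters were found in 1 (4.95% of all windows), the ETS letters in 1 (10.3%) and the EGR letters in 2 (5.77%), while CRE letters (1.85%) and the CArG box (1.29%) were in 0. These matches describe letters in a short window and not binding.

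The array signals are RMA values on the log2 scale, and the difference siLEF1 minus siNT was fitted with limma over all probe sets. A probe set was called where its adjusted p was below 0.05 and the groups were more than 2-fold apart. LEF1 itself, in its brightest probe set, had signals of 11.24 and 11.56 after siLEF1, against 12.30 and 11.92 after siNT (log2 difference -0.71, standard error 0.20, adjusted p = 0.191 from limma), which did not pass. Pearson's r, taken over probe sets, that is over features rather than samples, was 0.995 for the siLEF1 pair and 0.990 for the siNT pair. Among pairs of arrays from different groups it lay between 0.979 and 0.991. Of 10 T-cell markers, 8 lay above the upper quartile on all arrays, against 0 of 4 B-cell, 0 of 5 myeloid, 1 of 3 erythroid and 2 of 8 epithelial and stromal markers. The 5' minus 3' signal of ACTB, a sign of RNA quality, was -1.08 and -1.55 after siLEF1, against -1.80 and -1.95 after siNT, and its part in the results below was not tested. With each array centred on housekeeping genes every log2 difference moved by -0.13. In a whole culture, fewer cells that express a gene and less RNA per cell cannot be told apart.

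Signals of most of the 10 genes were lower in siLEF1 cells, and the size of the difference ran from large in PHLDA1, ETV5 and DUSP6 to none beyond the replicate spread in SPRED2. With each gene represented by its brightest probe set, the median log2 difference of the 10 genes was -0.61, with values from -2.50 to 0.05, beside a median of 0.02 over all 19775 genes. In 9 of the 10 genes both siLEF1 signals of that probe set lay below both siNT signals, and 26.4% of all genes showed this order. Over all 28 probe sets, 21 had this order (75%, beside 21.2% of all probe sets), 2 had the reverse order (27.4% of all probe sets) and 5 overlapped. A total of 9 probe sets were over 2-fold lower in value, against 2.34% of all probe sets.

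Calls were few. In the fit over all probe sets 3 of the 28 were called lower, 2 of DUSP6 and 1 of PHLDA1, where 0.183% of all probe sets were called lower. In the same fit 0 were called higher, against 0.0238% (limma; 0 of the 28 were higher at an unadjusted p under 0.05, against 6.85% of all probe sets). At that unadjusted level 17 of the 28 were lower (limma), and the matching share of all probe sets is not given here. Since the choice of the genes used this contrast, the shares are printed side by side only, and the count of 17 supports nothing by itself. The median log2 difference of the 10 genes was -0.65 without siLEF1 replicate 1 and -0.58 without siLEF1 replicate 2. It was -0.96 without siNT replicate 1 and -0.32 without siNT replicate 2. Without 1 siLEF1 array or without siNT replicate 2, no probe set of the whole array was called. Calls in those fits therefore cannot set the 28 apart from other probe sets. Without siNT replicate 1, 6 were called lower, in DUSP4, DUSP6 and PHLDA1, and 0 higher, in a fit that called 2.36% of all probe sets lower and 1.09% higher. In those fits the group left with 1 array is assumed to vary like the other. A filter at a mean signal of 6 passed 15 of the 28 probe sets and left 0 called. Of the 19383 probe sets that it kept on the whole array, 4 were called lower and 1 higher.

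**Figure D1:**
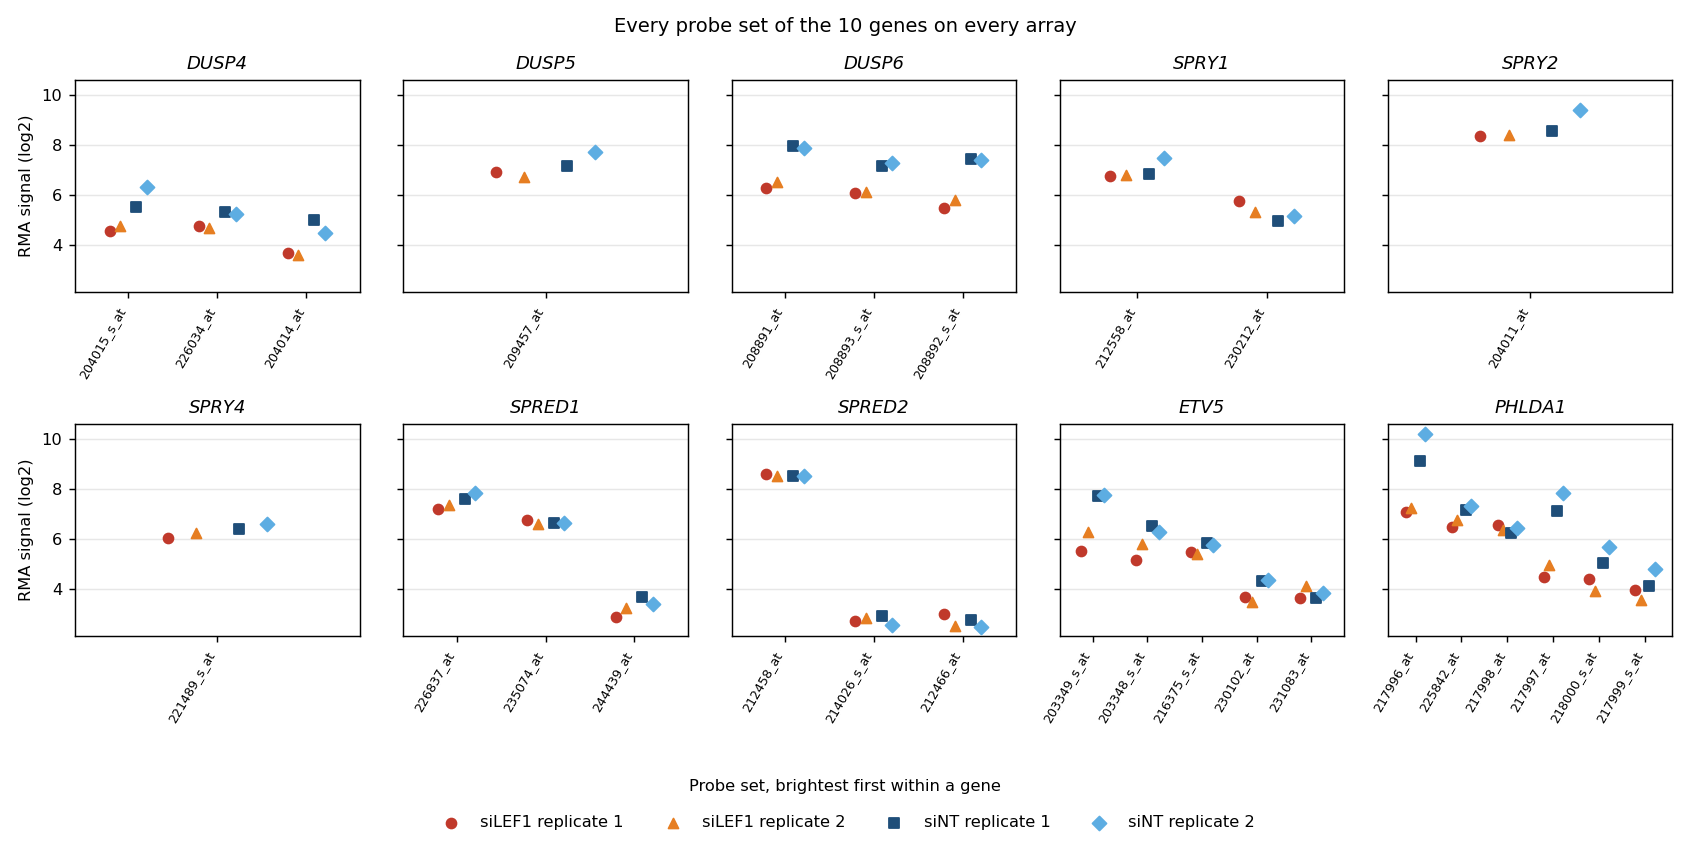
RMA signal (vertical axis, log2) of each of the 28 probe sets of the 10 genes (horizontal axis, brightest first within a gene), where circles and triangles are siLEF1 replicates 1 and 2 and squares and diamonds siNT replicates 1 and 2. All 3 DUSP6 probe sets show 2 siLEF1 points well below 2 close siNT points, while the brightest SPRED2 probe set holds all 4 points between 8.52 and 8.60.

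In the phosphatase family all 7 probe sets of DUSP4, DUSP5 and DUSP6 had both siLEF1 signals below both siNT signals. DUSP6 encodes a cytoplasmic phosphatase that is selective for ERK. Its brightest probe set, 208891_at, had signals of 6.30 and 6.53 after siLEF1, against 7.96 and 7.87 after siNT. The log2 difference was -1.50 (standard error 0.16, n = 2 arrays per group), 2.83-fold lower, and both siNT arrays lay close together. The probe set 208892_s_at gave signals of 5.48 and 5.83 after siLEF1, against 7.45 and 7.40 after siNT, a log2 difference of -1.77 (standard error 0.17). The third, 208893_s_at, gave signals of 6.10 and 6.15 after siLEF1, against 7.17 and 7.28 after siNT, a log2 difference of -1.10 (standard error 0.15), and was the DUSP6 probe set not called. Across the 3 probe sets the siNT replicates differed by at most 0.11, whereas the groups were at least 1.03 apart at their nearest signals.

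DUSP4 encodes a nuclear phosphatase of ERK and other MAP kinases, and its signals were dim. Its brightest probe set had signals of 4.57 and 4.77 after siLEF1, under the array medians of 4.84 and 4.85, against 5.54 and 6.34 after siNT. The log2 difference was -1.27 (standard error 0.27), but the siNT replicates were themselves 0.79 apart. The other DUSP4 probe sets had log2 differences of -1.11 and -0.59, and in these too both siLEF1 signals lay under the array medians. DUSP5, a nuclear phosphatase selective for ERK, was read by 1 probe set with signals of 6.93 and 6.73 after siLEF1, against 7.17 and 7.73 after siNT. The siNT gap of 0.56 nearly equalled the log2 difference of -0.62 (standard error 0.22).

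ETV5 had the second largest difference by brightest probe set. This probe set, 203349_s_at, had signals of 5.53 and 6.31 after siLEF1, against 7.75 and 7.76 after siNT, a log2 difference of -1.83 (standard error 0.26). Here the spread lay in the siLEF1 group, whose replicates were 0.78 apart, while the siNT arrays were nearly equal. The 5 ETV5 probe sets did not give the same size. A second, 203348_s_at, had signals of 5.16 and 5.80 after siLEF1, against 6.54 and 6.30 after siNT (log2 difference -0.94), and 216375_s_at had a log2 difference of -0.36. The dimmest pair, below the array medians on all 4 arrays, had log2 differences of -0.75 and 0.14. The mean over the 5 probe sets was -0.75.

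PHLDA1 was read by 6 probe sets, whose differences ran from -2.78 to 0.12 in log2 units. Its brightest, 217996_at, had signals of 7.09 and 7.27 after siLEF1, against 9.12 and 10.24 after siNT, a log2 difference of -2.50 (standard error 0.35), or 5.66-fold lower. The siNT replicates were 1.11 apart, so the fold depends on which siNT array is taken. The called probe set, 217997_at, had signals of 4.47 and 4.98 after siLEF1, against 7.14 and 7.87 after siNT, a log2 difference of -2.78 (standard error 0.29). By contrast 217998_at had signals of 6.56 and 6.38 after siLEF1, against 6.26 and 6.45 after siNT, where the groups overlapped (log2 difference 0.12). The remaining 3 probe sets had log2 differences between -1.19 and -0.62. The mean over all 6 was -1.28.

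Sprouty genes, whose products restrain RAS and RAF activation, had smaller differences, and those of SPRY1 and SPRY2 depended on which siNT array was taken. SPRY2 had signals of 8.36 and 8.41 after siLEF1, against 8.58 and 9.40 after siNT, so that siNT replicate 1 lay close to both siLEF1 arrays and siNT replicate 2 alone stood high. Its log2 difference was -0.61 (standard error 0.27), less than the gap of 0.83 between the siNT replicates. The brighter SPRY1 probe set showed the same, with signals of 6.75 and 6.80 after siLEF1, against 6.84 and 7.51 after siNT. The dimmer SPRY1 probe set ran the other way, with signals of 5.75 and 5.32 after siLEF1, against 4.99 and 5.16 after siNT (log2 difference 0.46), and the mean of both was 0.03. SPRY4 had signals of 6.05 and 6.26 after siLEF1, against 6.40 and 6.61 after siNT, a log2 difference of -0.35 (standard error 0.17), larger than the gap of 0.21 within either group.

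SPRED1 and SPRED2 encode relatives of Sprouty that bring the RAS inhibitor neurofibromin to the membrane. The brightest SPRED1 probe set had signals of 7.23 and 7.39 after siLEF1, against 7.62 and 7.84 after siNT (log2 difference -0.42, standard error 0.16). A second SPRED1 probe set gave signals of 6.76 and 6.62 after siLEF1, against 6.66 and 6.66 after siNT, and its groups overlapped. For SPRED2 the brightest probe set had signals of 8.60 and 8.54 after siLEF1, against 8.53 and 8.52 after siNT. Its log2 difference was 0.05 (standard error 0.14), and it is -0.08 when arrays are centred on housekeeping genes. The other 2 SPRED2 probe sets lay under the lower quartiles of all 4 arrays, and their groups overlapped. The dimmest SPRED1 probe set, under the medians of all 4 arrays, had a log2 difference of -0.47.

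By the brightest probe set, siNT replicate 2 exceeded siNT replicate 1 in 8 of 10 genes, with a median difference of 0.39 (48.8% of all genes, median -0.01). Over all 28 probe sets of the list it was the higher in 17, beside 51.2% of all probe sets, so the difference depended partly on the probe set taken. Set against siNT replicate 1 alone, the median log2 difference of the 10 genes was -0.32, and against siNT replicate 2 alone it was -0.96, with 9 of the 10 below 0 in both. Over all genes these medians were 0.02 and 0.02. The genes differed in how much this choice mattered. DUSP6 moved only between -1.54 and -1.46, and ETV5 between -1.82 and -1.84. In SPRY1, by contrast, the log2 difference was -0.06 against siNT replicate 1 and -0.73 against siNT replicate 2, and in SPRY2 it was -0.19 and -1.02. PHLDA1 had -1.94 and -3.06, large against either array.

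**Figure D2:**
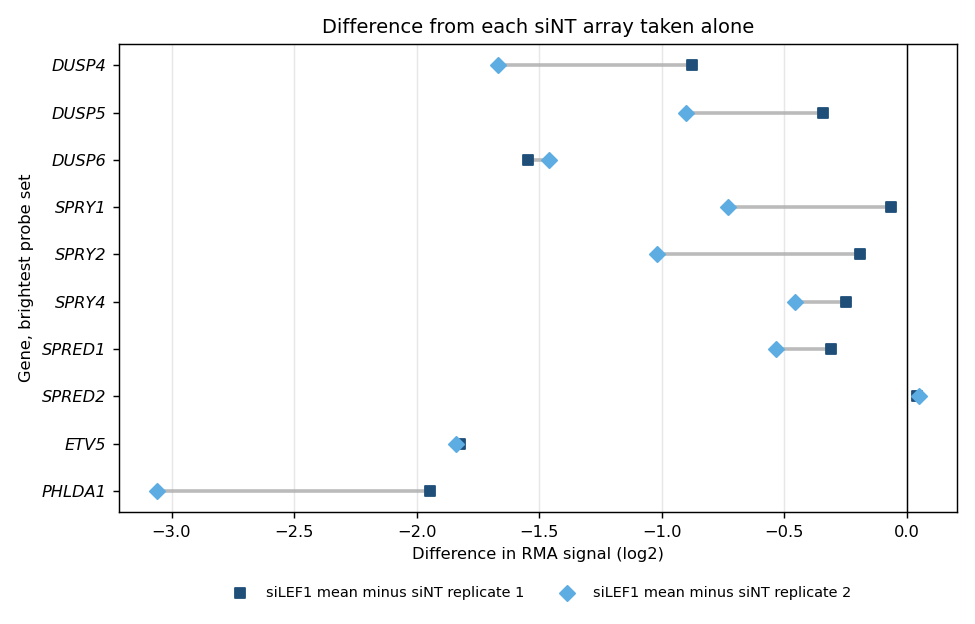
Mean siLEF1 signal minus the signal of siNT replicate 1 (squares) or siNT replicate 2 (diamonds) in log2 units (horizontal axis), for the brightest probe set of each of the 10 genes (vertical axis), with a grey line joining the 2 values of a gene. The markers nearly coincide for DUSP6, ETV5 and SPRED2 and lie far apart for PHLDA1, SPRY2, DUSP4 and SPRY1.

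Relatives of these genes were then examined, a list of 13 other MAP kinase phosphatase, Sprouty, SPRED, PEA3 and PHLDA genes, all of which had a probe set. Of these, 2 were called lower and 0 higher (limma), beside 0.263% and 0.0657% of all genes. At an unadjusted p under 0.05, 5 were lower and 1 higher, beside 11.5% and 7% of all genes. Their median log2 difference was -0.19, which was -0.10 against siNT replicate 1 alone and -0.27 against siNT replicate 2 alone. Both called genes encode phosphatases that act mainly on JNK and p38 rather than ERK. DUSP16 had signals of 6.56 and 6.91 after siLEF1, against 8.91 and 9.29 after siNT, a log2 difference of -2.37 (standard error 0.20, adjusted p = 0.0288 from limma). DUSP8 had signals of 6.02 and 5.98 after siLEF1, against 8.09 and 8.98 after siNT, a log2 difference of -2.53 (standard error 0.29, adjusted p = 0.0477 from limma). In each of them all siLEF1 signals were more than 2 log2 units under the lower siNT signal. The other probe sets of both genes were not called, and 1 of the 3 of DUSP16 overlapped between the groups. Against siNT replicate 1 alone the log2 difference was -2.18 for DUSP16 and -2.08 for DUSP8. Against siNT replicate 2 alone these were -2.56 and -2.97. Calls changed when 1 array was left out, as they did over the whole array. A fit restricted to probe sets with a mean signal of at least 6 called 0 of the 13 relatives. That fit called 4 of all 19383 probe sets lower and 1 higher.

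DUSP10, also a phosphatase of JNK and p38, had signals of 6.08 and 6.13 after siLEF1, against 7.89 and 9.15 after siNT (log2 difference -2.41, adjusted p = 0.0829 from limma), above the threshold. It lies outside the rule for naming genes, as do the genes that follow, and was chosen after its values were seen. DUSP7 and DUSP9, which with DUSP6 form the cytoplasmic ERK-selective class, had log2 differences of 0.40 (adjusted p = 0.303 from limma) and -0.30 (adjusted p = 0.402 from limma). ETV1 and ETV4, the other PEA3 factors, had overlapping groups, with log2 differences of -0.19 and 0.25. SPRY3 and SPRED3 had 0.05 and 0.19. Whether any relative differed from its listed counterpart was not tested.

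**Figure D3:**
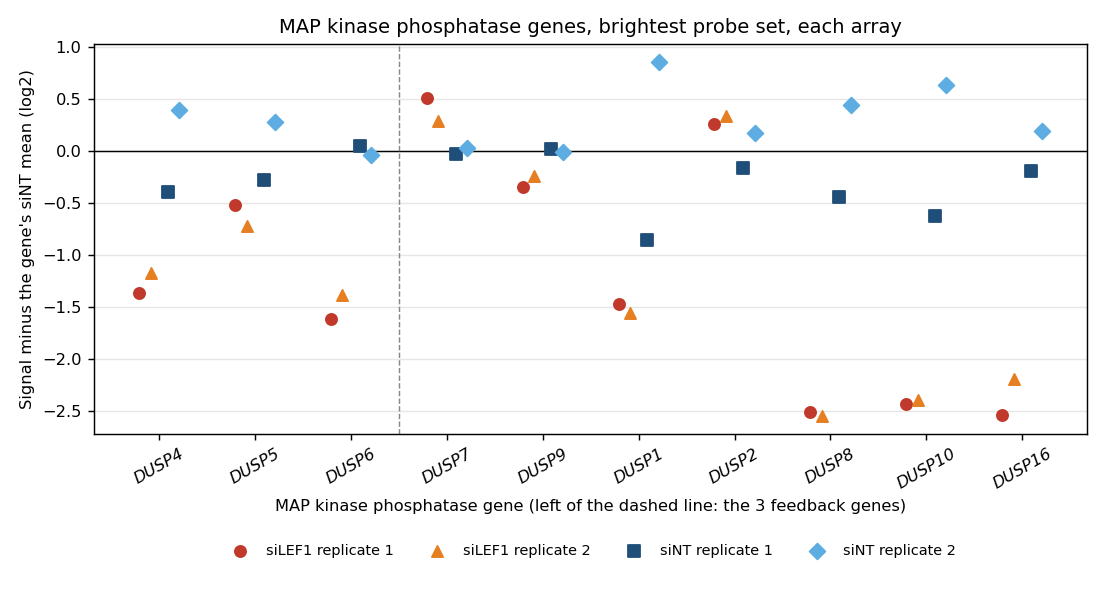
Signal of each array minus the mean siNT signal of the same gene (vertical axis, log2) for 10 MAP kinase phosphatase genes (horizontal axis), with siLEF1 replicates as circles and triangles, siNT replicates as squares and diamonds, and the 3 feedback genes left of the dashed line. The siLEF1 points of DUSP8, DUSP10 and DUSP16 lie lowest, and those of DUSP2 and DUSP7 lie above both siNT points.

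Genes of the RAS-ERK cascade itself were at hand for 31 of the 38 listed. None was called in either direction, that is 0 lower and 0 higher (limma; 2 lower and 5 higher at an unadjusted p under 0.05, beside 11.5% and 7% of all genes). With an intensity trend the counts were again 0 and 0, beside 0.329% and 0.091% of all genes. The median log2 difference was 0.15, but it was 0.24 against siNT replicate 2 alone and -0.004 against siNT replicate 1 alone. Leaving out siNT replicate 1 gave 1 lower and 2 higher calls, in a fit that called 2.89% of all genes lower and 1.07% higher. RASGRP2, an exchange factor that acts mainly on RAP1, had signals of 10.11 and 10.20 after siLEF1, against 9.49 and 8.80 after siNT (log2 difference 1.01, adjusted p = 0.153 from limma). The RAS exchange factor SOS2 had signals of 8.15 and 8.19 after siLEF1, against 8.73 and 8.72 after siNT (log2 difference -0.55, adjusted p = 0.171 from limma). PEBP1, which binds RAF and restrains it, had signals of 11.75 and 11.74 after siLEF1, against 11.27 and 11.11 after siNT (log2 difference 0.56, adjusted p = 0.178 from limma). In these 3 genes the groups did not overlap, an order that 12 of the 31 showed upwards and 10 downwards, beside 28.1% and 26.4% of all genes.

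Of 17 other genes that ERK signaling is known to induce, 16 were measured. Several of them were among genes that earlier results of these same arrays had described. Their counts and values are therefore a description and give no independent support to the feedback genes. None passed, with 0 lower and 0 higher (limma; 7 lower and 1 higher at an unadjusted p under 0.05, beside 11.5% and 7% of all genes). With an intensity trend 1 was called lower, beside 0.329% of all genes, and without siNT replicate 1 it was 7, beside 2.89%. Their median log2 difference was -0.72, which was -0.31 against siNT replicate 1 and -1.10 against siNT replicate 2. TRIB1, a pseudokinase gene, had signals of 5.48 and 5.72 after siLEF1, against 8.02 and 7.29 after siNT (log2 difference -2.06, adjusted p = 0.0562 from limma), and here siNT replicate 1 was the higher. The other TRIB1 probe sets, both below the array medians, overlapped between the groups, with log2 differences of 0.33 and 0.08. CD69, an early activation marker of T cells, had signals of 6.65 and 6.60 after siLEF1, against 8.07 and 7.70 after siNT (log2 difference -1.26, adjusted p = 0.0692 from limma). MAFF, a small MAF transcription factor, had signals of 7.44 and 7.60 after siLEF1, against 9.11 and 10.85 after siNT (log2 difference -2.46, adjusted p = 0.12 from limma).

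**Figure D4:**
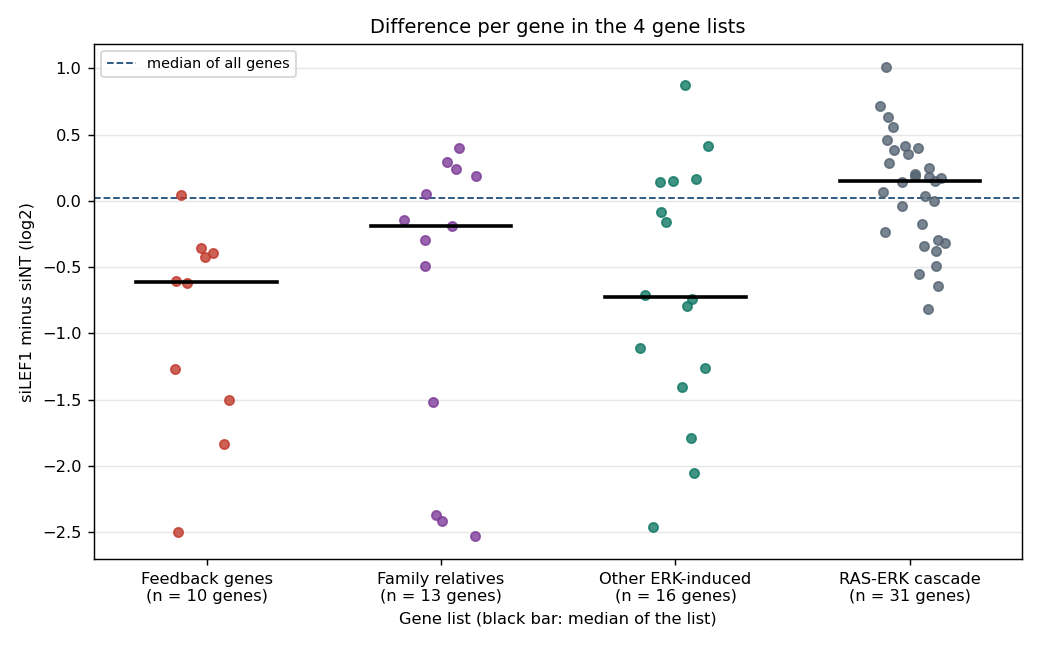
Log2 difference siLEF1 minus siNT (vertical axis) of each gene by its brightest probe set in 4 gene lists (horizontal axis), where points are genes, spread sideways for clarity, black bars are the medians of the lists and the dashed line is the median of all genes. The feedback genes lie between -2.50 and 0.05 and the cascade genes between -0.81 and 1.01.

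As a description, the genes whose profile over the 4 arrays was nearest to that of the brightest DUSP6 probe set were sought among 17163 probe sets with 1 symbol and a mean signal of at least 6. After centring each profile on its own mean, the smallest Euclidean distances were those of GAD1 (0.0984), PTPN22 (0.157), PLPP6 (0.163), WIPI1 (0.172) and FAM149B1 (0.181), all in log2 units. GAD1 had signals of 5.22 and 5.38 after siLEF1, against 6.78 and 6.65 after siNT. PTPN22, a tyrosine phosphatase of T-cell receptor signaling, had signals of 6.56 and 6.78 after siLEF1, against 8.22 and 7.95 after siNT. Within the list ETV5 was nearest to DUSP6, at 0.515, and SPRED2 farthest, at 1.56. The likeness was taken over 4 arrays only.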

How the data were processed

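Total RNA of the 4 Jurkat samples had been labeled with a 3' IVT kit and hybridized to Affymetrix HG-U133 Plus 2.0 arrays. The submitters' processing notes name Affymetrix Expression Console 1.1 and RMA (background correction, quantile normalization and summarization of probes), and the authors' deposited signals are in log2 units for every probe set. Whether arrays of untransfected cells shared the RMA run is not given in the sources used here. The 62 Affymetrix controls were removed, and the remaining 54613 probe sets entered a linear model in limma 3.58.1 (R 4.3.3; moderated 2-sided test from eBayes, p-values adjusted by Benjamini-Hochberg), with 2 residual degrees of freedom and 4.30 added by eBayes. The paper's methods compare 3 groups, and here 2 were compared. Gene symbols were taken from the annotation of the array and brought up to date through Entrez numbers, and genes were named only from the 41091 probe sets with 1 symbol (1801 had several and 11721 none). A gene was represented by its brightest probe set on average. The number of arrays limits the precision. The labels call the replicates biological and say no more, so p-values measure the spread between these arrays only. Members, lists and tests were chosen with earlier results of these data known. Named genes were all members, LEF1, the called genes of each list or else the 3 with the smallest p, and the 5 genes nearest to DUSP6. Alternatives were a signal filter, a robust fit with an intensity trend, the replicate number as a block, other centring, other fold thresholds, other probe set choices and each array left out. The fit was tested on simulated data.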

Additional observations from a re-analysis of the deposited data

How the results depend on the processing

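The log2 difference stayed below 0 for DUSP4, DUSP5, DUSP6, SPRY2, SPRY4, SPRED1, ETV5 and PHLDA1 under every alternative that gave a value, and for DUSP6 it lay between -1.63 and -1.39. SPRY1 was above 0 in the mean over its probe sets (0.03), and SPRED2 was below 0 with housekeeping centring (-0.08). Without probe sets of the _x_at and _s_at types ETV5 had -0.75 and DUSP4 -0.59, because other probe sets then stood for them, and SPRY4 had none left. The median of the 10 genes, -0.61 with all arrays, was -0.74 with housekeeping centring and lay between -0.96 and -0.32 when 1 array was left out.

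Counts of calls changed more. Over all probe sets, 100 were lower and 13 higher; with a mean signal of at least 6 these were 4 and 1, with housekeeping centring 465 and 28, and with an intensity trend 130 and 20. When 1 array was left out they lay between 0 and 1287 and between 0 and 595. Of the 28 probe sets 3 were called lower, against 0 with the signal filter, 7 with housekeeping centring (in DUSP4, DUSP6, ETV5 and PHLDA1) and between 0 and 6 when 1 array was left out, and 0 were called higher throughout. Relatives called lower numbered 2, against 0 with the signal filter and between 0 and 4 when 1 array was left out. Other ERK-induced genes called lower numbered 0, against 1 with an intensity trend, 2 with housekeeping centring, 1 without _x_at and _s_at probe sets and between 0 and 7 when 1 array was left out. In the cascade the ranges were 0 to 1 lower and 0 to 2 higher. With housekeeping centring 3 relatives were called lower. The cause of these changes in the counts was not tested.

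The replicate number gave no known pairing, since same-numbered arrays share only a number. With it as a replicate block 977 of all 54613 probe sets were called lower and 120 higher. In that fit 8 of the 28, 3 of the 13 relatives and 3 of the 16 other ERK-induced genes were called lower. The correlation of the replicate differences was -0.15 across probe sets. The crossed pairing, added after seeing the data, called 763 of all 54613 probe sets lower and 159 higher. It called 8 of the 28, 3 of the 13 relatives and 4 of the 16 other ERK-induced genes lower. Raw probe signals were not used here, so background correction and summarization were not varied.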
